A study of Mus musculus with 4 samples.

Results

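Brown adipocyte thermogenic genes are the 10 genes Ucp1, Cidea, Elovl3, Dio2, Cox8b, Cox7a1, Ppargc1a, Cpt1b, Otop1 and Kcnk3. They were taken by name from a one-colour Agilent mouse array that carried 37074 gene names. The array held 12 probes for them, with 2 probes each for Otop1 and Ppargc1a, and all 10 were among the 22497 genes tested. RNA came from abdominal aorta of male mice of 12 weeks, collected 4 weeks after CaPO4, a calcium phosphate treatment of the aorta that is used in mice to provoke aneurysm. Arrays K4 and K5 were labelled SR-A1-/-, and arrays W2 and W3 were labelled wild type. SR-A1 is a scavenger receptor of macrophages, encoded by Msr1. All 4 samples had received CaPO4, so the groups differed by genotype label only. The allele, the strain background and whether fat around the aorta was removed are not given in the labels used here. The study's design text speaks of 2 independent experiments, but the labels do not say whether the 2 arrays of a group came from separate animals, and the p-values cover no more than how far these samples lie apart.

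Brown adipocytes burn fatty acids in their mitochondria and let the proton gradient run back across the inner membrane through Ucp1, which releases the energy as heat. Noradrenaline from sympathetic nerves acts on the receptor Adrb3, raises cyclic AMP, frees fatty acids from lipid droplets and switches on Ucp1, Ppargc1a and Dio2. In rodents the fat around the thoracic aorta resembles brown fat, and the fat around the abdominal aorta holds more white adipocytes. Cox8b, Cox7a1, Cpt1b and Ppargc1a are also used by striated muscle, whereas Ucp1 marks brown and beige adipocytes.

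The promoters are shown because Ucp1, Dio2 and Ppargc1a are textbook targets of cyclic AMP signalling and because their values, given below, did not follow each other closely on these arrays. RefSeq windows of 250 bases before the start of the gene (build GRCm38.p6) were matched for 6 of the 10 members, Ucp1, Dio2, Cox8b, Cox7a1, Ppargc1a and Otop1. The windows of Ucp1 (chr8:83290098-83290347, plus strand), Dio2 (chr12:90739039-90739288, minus strand) and Ppargc1a (chr5:51567726-51567975, minus strand) read, 5′ to 3′, with the motif matches in capitals:
Ucp1: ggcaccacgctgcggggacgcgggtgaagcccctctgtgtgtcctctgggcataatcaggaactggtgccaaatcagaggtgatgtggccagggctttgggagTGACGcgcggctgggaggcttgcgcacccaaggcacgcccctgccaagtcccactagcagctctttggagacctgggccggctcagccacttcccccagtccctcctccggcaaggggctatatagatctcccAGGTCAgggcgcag
Dio2: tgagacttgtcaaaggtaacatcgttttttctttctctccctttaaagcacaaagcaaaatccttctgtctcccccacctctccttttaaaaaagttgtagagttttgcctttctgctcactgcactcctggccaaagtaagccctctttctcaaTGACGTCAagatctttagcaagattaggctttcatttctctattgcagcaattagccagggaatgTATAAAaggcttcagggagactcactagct
Ppargc1a: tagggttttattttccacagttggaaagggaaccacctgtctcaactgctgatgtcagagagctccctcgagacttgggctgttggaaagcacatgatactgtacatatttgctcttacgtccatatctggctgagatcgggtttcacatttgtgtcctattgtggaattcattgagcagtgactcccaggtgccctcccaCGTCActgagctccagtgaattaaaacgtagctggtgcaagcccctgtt
Both strands were searched. The full cyclic AMP response element TGACGTCA stood in the Dio2 window, beginning at position -95 (the base before the start is -1), and in 1.55% of the 32851 promoter windows. Its core TGACG, which overlaps the full element, stood in the windows of Ucp1 (from -147), Dio2 and Ppargc1a (from -49, as CGTCA on the strand shown) and in 17.8% of all windows. The nuclear receptor letters AGGTCA stood in the Ucp1 window from -14 and in 14.0% of all windows. The Dio2 window also held TATAAA from -30, which 12.4% of all windows held. CCAAT stood in the Cox7a1 window, at -137 and -74 as ATTGG, and in 33.8% of all windows. The letters TCAAGGTCA, which contain AGGTCA, were in none of the 6 windows and in 0.387% of all. The main enhancer of Ucp1 lies farther upstream and is outside this window.

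For the measurement itself, the Ucp1 probe and both Otop1 probes are shown, because Ucp1 had the widest range of the members and the Otop1 probes disagreed. The Ucp1 probe starts at base 1076 of the transcript (mm9 chr8:85821788-85821847, plus strand). One Otop1 probe starts at base 1719 (mm9 chr5:38694026-38694085, plus strand), and the other at base 3028 (mm9 chr5:38695335-38695394, plus strand), of which the first 30 bases are given. No letter is set apart in these lines.
Ucp1 base 1076: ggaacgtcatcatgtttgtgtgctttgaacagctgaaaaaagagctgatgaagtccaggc
Otop1 base 1719: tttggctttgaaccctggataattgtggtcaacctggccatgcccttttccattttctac
Otop1 base 3028: attctagctccagaagatctgatattcttc
Each of the 3 probes has 60 bases, of which 27 are G or C, so base composition did not differ between the Otop1 probes.

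Values below are log2 of the processed signal minus the 75th percentile of that array, so that 1 unit is a 2-fold difference, and levels are compared only between arrays for one probe. That percentile was 245 on K4, 133 on K5, 132 on W2 and 220 on W3, and 57.6% to 62.6% of probes stood well above background. The smooth muscle genes that define the aortic wall, Acta2, Myh11 and Cnn1, were well above background on all 4 arrays. Msr1, the gene of SR-A1, went against the labels. Its probe from base 3231 read -1.26 on K4 and -2.09 on K5, against -5.30 on W2 and -2.10 on W3, and it was well above background on every array except W2. Its probe from base 624 read -1.50 on K4 and -1.38 on K5, against -6.40 on W2 and -2.12 on W3. The labels do not say which part of Msr1 was deleted, so these probes may lie outside it, and directions below are those of the labels.

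Ucp1, the uncoupling protein itself, split each group. Its level was 5.31 on K4 and -6.62 on K5, against -6.30 on W2 and 7.09 on W3. The processed signals were 9703 on K4 and 1.35 on K5, against 1.68 on W2 and 29902 on W3. The K5 and W2 signals were not well above background, so 1 array of each group measured the gene. Set against the lowest signal above background of the dim array, K4 was at least 894-fold above K5 and W3 was at least 2606-fold above W2. Between the arrays that measured it, W3 was 3.43-fold above K4. The difference of the group means was -1.05 ± 5.71 (SE; K minus W), with an adjusted p of 1.0 in the limma fit (Benjamini-Hochberg over all tested genes). Since this is whole tissue, fewer brown adipocytes and less Ucp1 RNA per cell cannot be told apart.

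Cidea, a lipid droplet protein that helps droplets to fuse and grow, read 5.63 on K4 and -0.32 on K5, against 1.29 on W2 and 6.90 on W3. It was above background on all 4 arrays, and its signal on W2, 322, was the third highest. Elovl3, an elongase of very long fatty acids that cold induces in brown fat, read -2.47 on K4 and -6.59 on K5, against -6.35 on W2 and -0.86 on W3 (mm9 chr19:46209325-46209384). Elovl3 was not well above background on K5 and W2, the same arrays on which Ucp1 was dim. The differences were -1.44 ± 2.62 for Cidea and -0.93 ± 2.20 for Elovl3, both with an adjusted p of 1.0 (limma). K4 was 61.9-fold above K5 for Cidea and at least 4.06-fold for Elovl3, and W3 was 48.9-fold above W2 for Cidea and at least 10.6-fold for Elovl3.

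The mitochondrial members showed the same top array and a less deep low end. Cox8b, a subunit of respiratory complex IV in the form used by muscle and brown fat, read 5.72 on K4 and 1.55 on K5, against 4.08 on W2 and 7.28 on W3 (mm9 chr7:148084852-148084911). Cox7a1, the corresponding form of another complex IV subunit, read 4.29 on K4 and 1.39 on K5, against 4.21 on W2 and 6.40 on W3. Cpt1b, the muscle and brown fat form of the enzyme that admits long-chain fatty acids to mitochondria, read 0.99 on K4 and -1.08 on K5, against 0.19 on W2 and 2.39 on W3 (mm9 chr15:89246836-89246895). For these 3 genes W3 was highest and K5 lowest, K4 and W2 lay between them, and the groups overlapped. Cox7a1 on K4 and W2 differed by less than 0.1, although Ucp1 was measured on K4 and dim on W2. The difference was -2.04 ± 1.69 for Cox8b (adjusted p = 1.0), -2.47 ± 1.19 for Cox7a1 (adjusted p = 0.904) and -1.34 ± 0.998 for Cpt1b (adjusted p = 1.0), all from limma. Cox7a1 averaged 2.84 ± 2.05 in the arrays labelled SR-A1-/- and 5.30 ± 1.55 in the wild-type arrays (SD, n = 2 each), and its difference was the largest in size of the 10 members.

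The regulators Ppargc1a and Dio2 varied less between arrays. Ppargc1a, a coactivator that raises mitochondrial and Ucp1 transcription, read -0.14 on K4 and -0.34 on K5, against -0.48 on W2 and 0.57 on W3 at the probe from base 2964. Its probe from base 2473 read -2.33 on K4 and -2.29 on K5, against -2.31 on W2 and -1.75 on W3. Both probes put W3 highest and the other 3 arrays within 0.5 of each other, and both gave a difference of -0.28 (adjusted p = 1.0 for each). Dio2, the deiodinase that makes active thyroid hormone inside the cell, read -0.91 on K4 and -0.91 on K5, against -0.12 on W2 and 0.83 on W3 (mm9 chr12:91963235-91963294). Dio2 was the one member whose groups did not overlap. It averaged -0.91 ± 0.0028 in the arrays labelled SR-A1-/- and 0.36 ± 0.68 in the wild-type arrays (SD, n = 2 each), a difference of -1.27 ± 0.41 with an unadjusted p of 0.0271 and an adjusted p of 0.693 (limma). Among all tested genes, 13.7% were lower on both arrays labelled SR-A1-/- without overlap, and 29.8% had groups that did not overlap in either direction. Dio2 was also the member on which K4 and K5 were closest, whereas for Ucp1 they lay at least 9.80 apart on the log2 scale, K5 being dim.

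The membrane channels were Otop1 and Kcnk3. Otop1, a proton channel also expressed in brown fat, read 2.21 on K4 and -6.70 on K5, against -3.62 on W2 and 2.87 on W3 at the probe from base 3028, with K5 not well above background. At the probe from base 1719 it read -3.06 on K4 and -3.54 on K5, against -3.93 on W2 and -2.55 on W3, all well above background. The range over the arrays was thus at least 7.36 at one probe, with K5 raised to the lowest signal above background, and 1.39 at the other, while both put W3 highest and K4 next. The difference was -1.87 ± 3.51 at the brighter probe and -0.06 ± 0.54 at the other, with an adjusted p of 1.0 at each (limma). Kcnk3, a potassium channel that sets the membrane potential of adipocytes and of vascular smooth muscle, read 0.54 on K4 and 0.32 on K5, against -0.02 on W2 and 1.42 on W3 (mm9 chr5:30927090-30927149). Its arrays other than W3 lay within 0.6 of each other, and its difference was -0.27 ± 0.53 (adjusted p = 1.0).

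**Figure D1:**
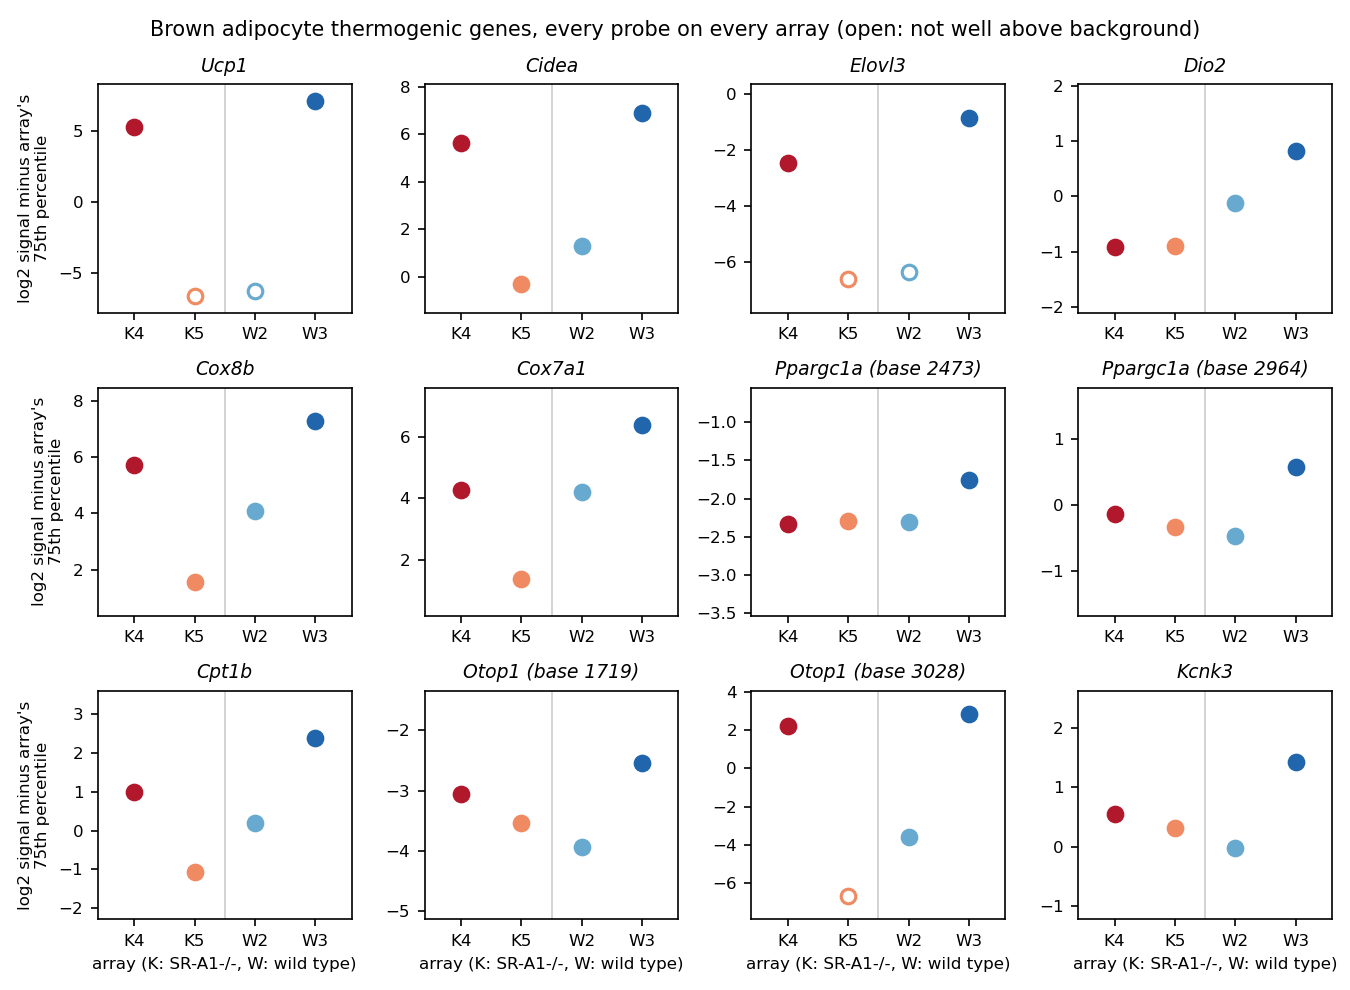
Each panel plots 1 of the 12 member probes, with arrays K4 and K5 (labelled SR-A1-/-) left of W2 and W3 (wild type) and log2 signal minus the array's 75th percentile on a vertical axis scaled for that panel. Open points were not well above background. W3 is the highest point in all 12 panels, and the Ucp1 points lie near 5.31 and -6.62 for the arrays labelled SR-A1-/- and near -6.30 and 7.09 for wild type.

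Across the members, the comparison of the groups gave no call. Of the 10 members, 0 passed an adjusted p of 0.05 in limma, as did 0 of all tested genes (0%). At an unadjusted p under 0.05 there was 1 member, Dio2, against 6.29% of all tested genes. All 10 differences were below 0, with a median of -1.30, against a median of -0.0057 over all tested genes, of which 50.7% were below 0. A difference of -1 or lower was found for 7 of the 10 members and for 3.48% of all tested genes, but for 4 of 10 members with normexp background correction and for 6 of 10 with dim values raised. These counts are not 10 separate observations, since the members were read on the same 4 arrays. The direction rested on single arrays: the median difference was -3.45 without K4 and -0.06 without K5, and -3.60 without W2 and 0.34 without W3, with 6 of 10 differences above 0 without W3 and 5 of 10 without K5. With 2 arrays against 2, an exact permutation test over samples cannot give a two-sided p below 0.333.

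The gaps inside the groups were wider than the differences between them. The median absolute gap over the members was 3.51 between K4 and K5 (2.49 with dim values raised) and 2.70 between W3 and W2 (2.70 likewise), against a median absolute difference of 1.30 between the group means. Over all tested genes these medians were 0.39 between K4 and K5, 0.43 between W3 and W2 and 0.23 between the means. The difference between means exceeded both gaps for 1 of 10 members, Dio2, and for 20.1% of all tested genes. W3 was highest for 10 of 10 members, and for 27% of all tested genes. K5 was lowest for 7 members, W2 for 2 (Ppargc1a and Kcnk3) and K4 for 1 (Dio2), although for Ucp1 and Elovl3 both low values were dim and have no order. K4 and W3 both stood above K5 and W2 for 9 of 10 members, and for 27% of all tested genes. K4 and W3 were also the arrays with the higher overall signal. Under other scalings K4 and W3 stood on top for 9 of 10 members with quantile normalization, against 25.5% of all tested genes. With median scaling it was 9 of 10, against 38%, and with the authors' deposited values 8 of 10, against 26.3%. The part of array brightness in the members' order was not tested.

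At like overall signal, K4 was lower than W3 for 10 of 10 members, which restates that W3 was the highest array for each of them. The median difference was -1.48, and 49.3% of all tested genes were lower on K4 than on W3. K5 was lower than W2 for 8 of 10 members, with a median of -1.03, and 52.8% of all tested genes were lower. The 2 exceptions were Ppargc1a at 0.14 and Kcnk3 at 0.33, and Ucp1 and Elovl3 were dim on both of those arrays, so their order there has no meaning. With the signal level as a block in the limma fit, the lowest adjusted p of a member was 0.212 and 0 members passed.

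**Figure D2:**
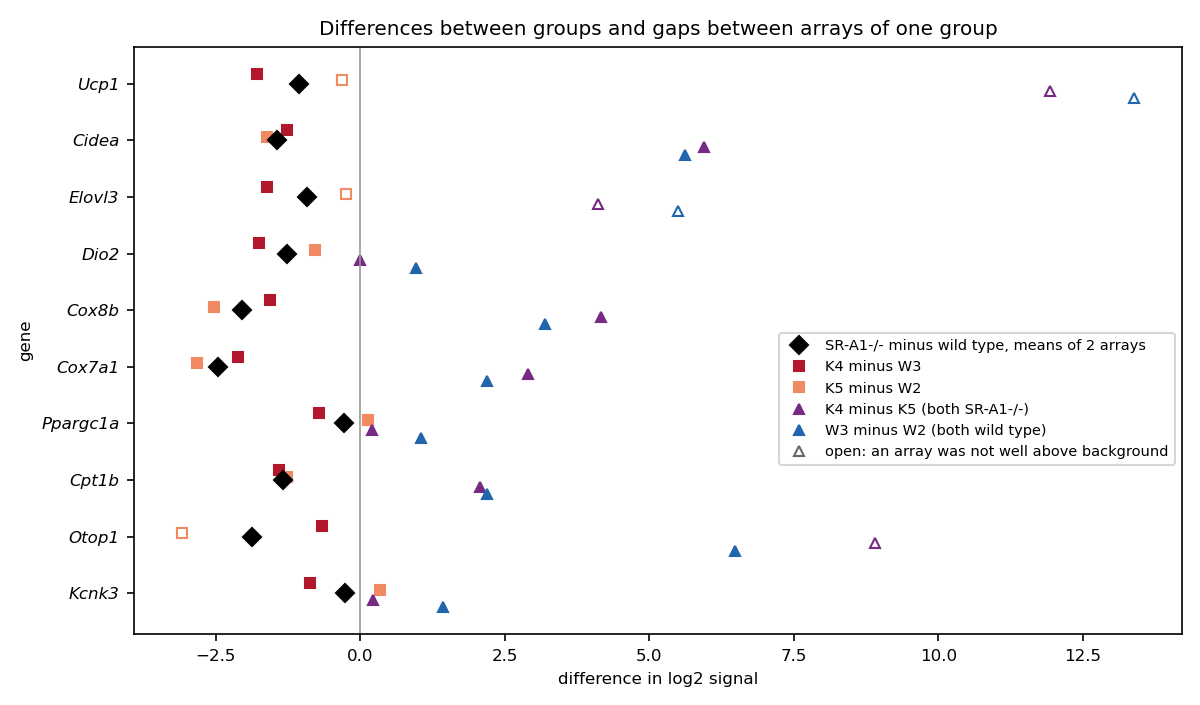
For each member (vertical axis), the horizontal axis gives differences in log2 signal. Diamonds are the arrays labelled SR-A1-/- minus wild type, squares set K4 against W3 and K5 against W2, triangles are gaps between the 2 arrays of one group, and open symbols involve an array not well above background and are not measured sizes. The diamonds lie between -2.47 and -0.27, and the Cidea triangles, measured on all arrays, lie at 5.95 within the SR-A1-/- label and 5.61 within wild type.

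The near relatives of the members had, taken as a list, smaller ranges from array to array. The 17 relatives tested had a median range over the 4 arrays of 1.26 and all tested genes one of 0.76, against 5.37 for the members, or 4.32 with the members' dim values raised to the lowest signal above background. Of the 17, 8 had K4 and W3 above K5 and W2, against 27% of all tested genes. W3 was highest for 8 of the 17, also against 27%. Ucp2, a related carrier common in immune cells, read 0.25 on K4 and 1.97 on K5, against 0.40 on W2 and 0.07 on W3. Ucp3, the form of skeletal muscle, read 1.12 on K4 and 2.29 on K5, against 0.80 on W2 and 0.89 on W3. Both were highest on K5, one of the arrays on which Ucp1 was dim. Cox8a, the widespread counterpart of Cox8b, had a range of 1.07 against 5.73 for Cox8b, and Cox7a2, that of Cox7a1, had 1.55 against 5.01. Cpt1a, the liver form, had a range of 0.76 against 3.47 for Cpt1b. Cpt1a was lowest on W3, where Cpt1b was highest. Cidec, the Cidea relative that builds the single large droplet of white adipocytes, had a wider range than Cidea and read 6.14 on K4 and -2.40 on K5, against 5.43 on W2 and 6.14 on W3, a range of 8.55. Cidec on W2 was 0.71 below its W3 value, whereas Cidea on W2 was 5.61 below its W3 value and Ucp1 was dim there. Ppargc1b, a coactivator related to Ppargc1a, also had a wider range than its member, 1.89 against 1.05, and read 0.91 on K4 and 0.54 on K5, against 0.47 on W2 and 2.36 on W3. No relative passed the adjusted p (0 of 17, and 0 at an unadjusted p under 0.05, limma).

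**Figure D3:**
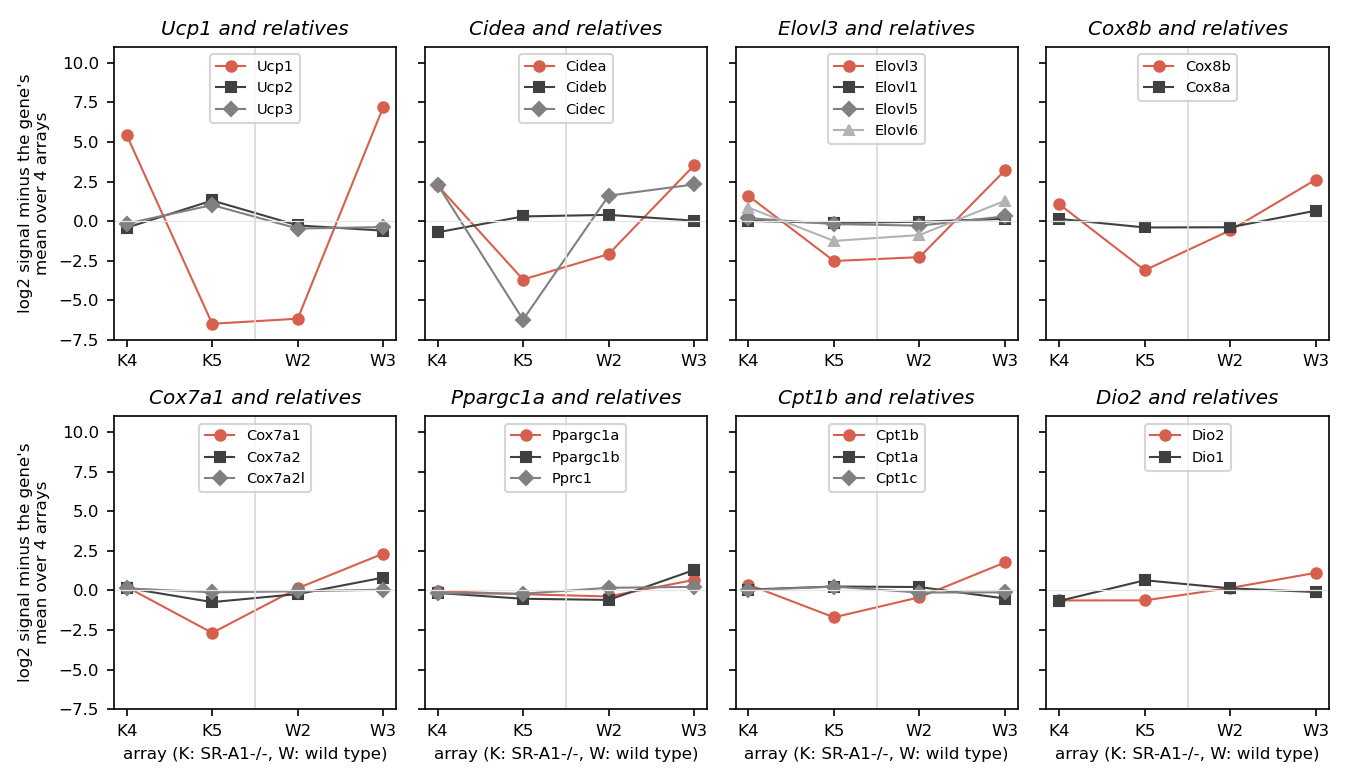
Each panel plots a member (red circles) and its relatives (grey symbols) as log2 signal minus the gene's own mean over the 4 arrays, with K4 and K5 (labelled SR-A1-/-) left of W2 and W3 (wild type), joined by lines to guide the eye. The low Ucp1 and Elovl3 points (K5 and W2) were not well above background. Ucp1 spans at least 11.6 units and Ucp2 1.91, whereas Cidec spans 8.55 units and Cidea 7.22.

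The pathway that drives Ucp1 was read from lists of its other parts, chosen with earlier results of these data known. No gene of any of these lists passed the adjusted p in limma. Of 17 adrenergic and cyclic AMP genes, 3 were higher and 1 was lower on both arrays labelled SR-A1-/- without overlap, and their median difference was -0.05. These 4 are 23.5% of the list, against 29.8% of all tested genes whose groups did not overlap. Adrb3, the adipocyte receptor for noradrenaline, read 3.55 on K4 and -6.18 on K5, against 2.41 on W2 and 4.36 on W3, and was not well above background on K5. Adrb1 read -1.73 on K4 and -4.63 on K5, against -5.51 on W2 and -1.23 on W3, and was not well above background on K5 and W2. Adrb3 was therefore measured on W2, where Ucp1 was not. Of 19 transcriptional regulators of brown fat, 1 was higher and 4 were lower without overlap (26.3%), with a median of -0.30. Among them Prdm16, a brown fat determination factor, read -0.25 on K4 and -0.67 on K5, against 0.28 on W2 and 0.27 on W3, a difference of -0.73 ± 0.30 (adjusted p = 0.820). Ebf2, which marks brown precursors, was higher instead, at 1.63 on K4 and 1.24 on K5, against 0.70 on W2 and 1.21 on W3 (adjusted p = 1.0). Pparg, the master regulator of fat cells, read 3.26 on K4 and 0.45 on K5, against 1.71 on W2 and 3.71 on W3. Thyroid hormone genes, through which the product of Dio2 acts, had 1 higher and 3 lower of 8 without overlap (50%), with a median of -0.22. The receptor Thrb read 0.90 on K4 and 0.94 on K5, against 1.27 on W2 and 1.51 on W3 (adjusted p = 1.0).

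Fuel supply and oxidation followed the members' order of arrays. Of 16 genes of mitochondrial fatty acid oxidation, all 16 had K4 and W3 above K5 and W2, all 16 had W3 highest and 15 had K5 lowest, with a median difference of -0.63. Acadvl, which opens the oxidation of very long chains, read 5.73 on K4 and 3.81 on K5, against 4.56 on W2 and 6.75 on W3. The median range of this list was 2.03, smaller than the 5.37 of the members. Of 13 lipid droplet and lipolysis genes 12 had that order, with Pnpla2, the first lipase of stored fat, at 5.07 on K4 and 3.15 on K5, against 4.27 on W2 and 5.37 on W3. Of 15 fuel uptake genes 14 had it, with Lpl, the lipase that brings fatty acids from blood, at 6.45 on K4 and 3.79 on K5, against 4.58 on W2 and 6.34 on W3. Of 9 further complex IV subunits 7 had it, and Cox5a read 5.42 on K4 and 3.97 on K5, against 5.004 on W2 and 6.41 on W3. The groups overlapped for every gene of the oxidation, lipolysis and uptake lists. Other genes proposed as brown adipocyte markers gave a mixed picture. Of 16 on the array 12 were tested, and the rest were well above background on no array, W3 and K4 included. Of the 12 tested, 8 had that order. Lhx8 read -2.41 on K4 and -2.48 on K5, against -2.88 on W2 and -2.14 on W3. Mpzl2 read -0.64 on K4 and -3.38 on K5, against -2.33 on W2 and 0.66 on W3. P2rx5 did not overlap between groups, at 1.46 on K4 and 1.23 on K5, against 1.66 on W2 and 2.86 on W3 (adjusted p = 0.939). In this list 3 of 12 did not overlap (25%, against 29.8% of all tested genes).

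Markers of other cells also differed between the arrays. The log2 of the summed level of 18 white and general adipocyte markers was 9.97 on K4 and 5.32 on K5, against 9.08 on W2 and 10.01 on W3. At the probe that stands for each gene, 13 of the 18 were well above background on all 4 arrays and 5 on all but K5. Adipoq, the adipocyte hormone adiponectin, read 5.36 on K4 and -2.93 on K5, against 4.50 on W2 and 5.24 on W3. Retn, the hormone resistin, read 4.52 on K4 and -3.60 on K5, against 3.03 on W2 and 3.91 on W3. Of the 18 markers 17 were lowest on K5. The exception was Lep, the hormone leptin, at -1.02 on K4 and -0.63 on K5, against -1.10 on W2 and -1.64 on W3. W2 therefore had every adipocyte marker above background and Ucp1 not, and 15 of the 18 markers had K4 and W3 above K5 and W2. The thermogenic members and the adipocyte markers also parted between K4 and W3, where the median difference was -1.48 over the members and 0.05 over the adipocyte markers. Between K5 and W2 it was -1.03 over the members and -5.30 over the adipocyte markers. The part of adipocyte content in the members' differences was not tested.

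Skeletal muscle markers (22 tested) had a log2 summed level of 7.999 on K4 and 8.60 on K5, against 10.9 on W2 and 9.23 on W3. Ckm, the muscle creatine kinase, read 0.52 on K4 and 2.37 on K5, against 5.69 on W2 and 2.33 on W3, and Acta1 read 4.60 on K4 and 5.77 on K5, against 7.18 on W2 and 5.52 on W3. Of the 22, 5 were higher and 12 lower on both arrays labelled SR-A1-/- without overlap (77.3%, against 29.8% of all tested genes). Myh1, a fast myosin, was among the higher, at 3.57 on K4 and 4.39 on K5, against -0.66 on W2 and 1.35 on W3. W2 was thus highest for the summed muscle markers. Cox8b, Cox7a1 and Cpt1b, which muscle also uses, were above background on all 4 arrays and highest on W3. The part of muscle in the values of these 3 genes was not tested. Smooth muscle markers (10 tested) had a summed level of 10.2 on K4 and 10.4 on K5, against 10.9 on W2 and 10.5 on W3, and macrophage markers (8 tested) 8.03 on K4 and 8.07 on K5, against 7.36 on W2 and 8.39 on W3. The sums of the macrophage markers overlapped. By gene, 4 of the 8 were higher and 1 lower on both arrays labelled SR-A1-/- without overlap (62.5%, against 29.8% of all tested genes). The median difference of the 8 was 1.16, and 4 (50%) had an unadjusted p under 0.05 in limma, against 6.29% of all tested genes.

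**Figure D4:**
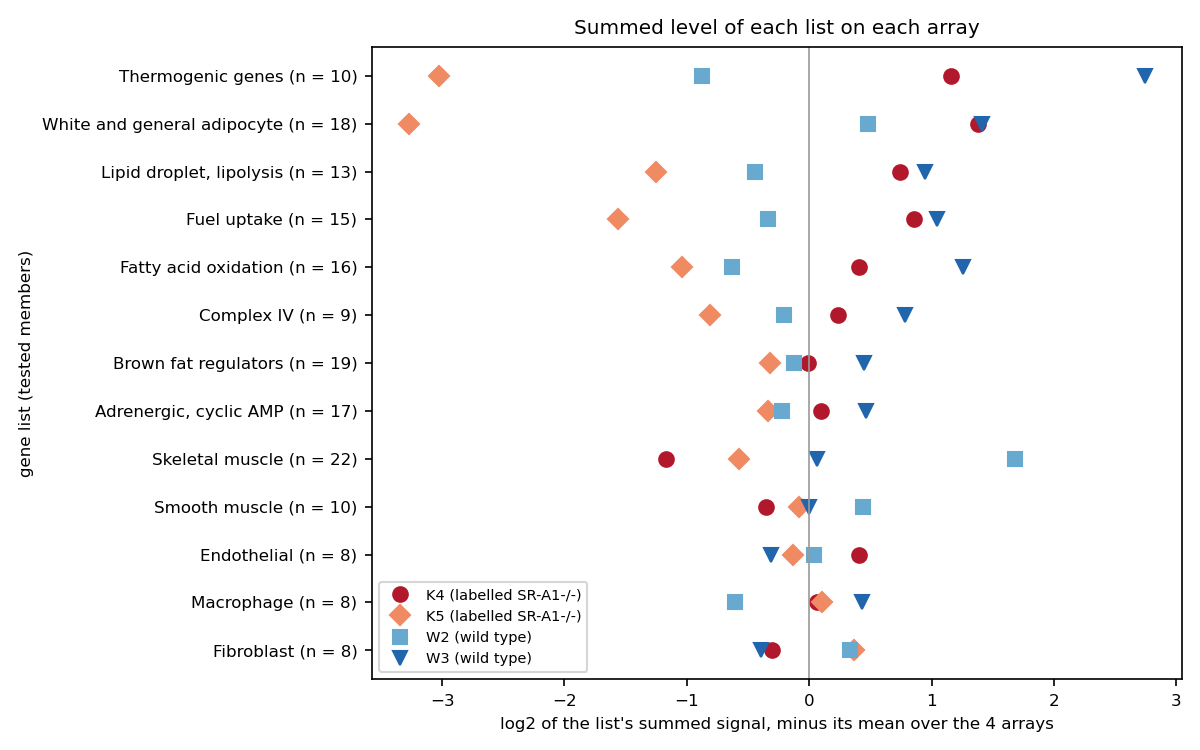
Each line is a gene list with its number of tested genes, and the horizontal axis is the log2 of its summed signal on an array minus its mean over the 4 arrays. Red and orange symbols are K4 and K5 (labelled SR-A1-/-), and light and dark blue symbols are W2 and W3 (wild type). The thermogenic genes spread over 7.42 on K4, 3.24 on K5, 5.38 on W2 and 9.01 on W3 before centring, and the adipocyte markers set K5 apart.

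The genes most like Ucp1 were taken by the Euclidean distance between values centred over the 4 arrays, among tested genes well above background on at least 3 arrays with a range of at least 2. Ucp1 itself was well above background on 2 arrays, so this rule left out any gene that was dim on both K5 and W2, as Ucp1 was. The nearest 8 outside the members that met the rule were Aspg, Gys2, Thrsp, Clstn3, Plin5, Paqr9, Acsm3 and Slc36a2, at distances of 6.97 to 7.95. Aspg read 0.99 on K4 and -4.20 on K5, against -3.81 on W2 and 2.39 on W3. Gys2 encodes the liver form of glycogen synthase, Plin5 a droplet coat protein of oxidative tissues and Slc36a2 an amino acid transporter also used as a surface marker of brown adipocytes. The members were not held to the rule of 3 arrays. Among them, Otop1 was nearer to Ucp1 than any of the 8 at 5.39, Cidea stood at 6.95 and Elovl3 at 7.86. Dio2 was the farthest member at 12.2, followed by Ppargc1a at 12.1 and Kcnk3 at 11.9. The values were centred but not scaled, so a gene of small range lies far from Ucp1 whatever its order of arrays. Dio2, Ppargc1a and Kcnk3 had the smallest ranges of the members, at 1.75, 1.05 and 1.43. The Ucp1 values on K5 and W2 that enter every distance were dim. The ranges of the 8 genes as read were 6.43 to 9.52, against 13.7 for Ucp1 as read. The range of Ucp1 was 11.6 with its dim values raised to the lowest signal above background. Dim values of the 8 genes were not raised.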

How the data were processed

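RNA of 4 abdominal aorta samples was labelled with Cy3 and hybridised to 4 one-colour arrays of 1 slide, with 1 scan time, per the labels' protocols and the file headers. The deposited intensity is the processed signal of Agilent Feature Extraction 12.0.3.1, per the file headers: background-subtracted, detrended and not normalised between arrays. The submitters' processing notes name version 10.7 of that program and limma. The deposited log2 value table of the authors was used as an alternative only, and the deposited flags (well above background, outlier) as filters.

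From the 62976 spots, control and outlier spots were left out (0 were saturated), spots of a probe were averaged, and log2 signal minus the array's 75th percentile was taken. Of 56605 probes, the 35107 that 2 or more arrays flagged well above background were kept, and the brightest stood for its gene. For the comparison of groups, limma 3.58.1 in R 4.3.3 fitted a linear model per gene (lmFit, then eBayes), and its two-sided p-values were adjusted by Benjamini-Hochberg over 22497 genes. The fit was tested on simulated data. File reading used data.table (1.17.8), while sequences and plots were handled with Python 3.11.15, pandas 2.3.3 and matplotlib 3.10.9. The number of arrays limits the precision, and values at the low end of the scanner are surrogates with no order. Promoters came from RefSeq (GRCm38.p6), probe positions from the array files (mm9).

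The members and the lists were chosen with earlier results of these data known. Named genes were every member, Msr1, genes among the first 3 tested of each list and relatives of a member. The 8 genes nearest to Ucp1 under the filter given above were named too. Alternatives were other scalings, background correction, filters, probe rules, the variance trend, the authors' values, a block for signal level, and each array left out. Raising dim values to the lowest signal above background was chosen after seeing the data.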

Additional observations from a re-analysis of the deposited data

How the results depend on the processing

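In all 10 alternatives that kept the 4 arrays, every member tested had a difference below 0 and 0 members passed the adjusted p of 0.05 (limma). The number of all genes past it was 8 with quantile normalization, 7 with median scaling, 22 with normexp, 8 with no filter, 5 with an intensity trend and 8 with the authors' deposited values, and 0 otherwise. Members whose groups did not overlap numbered 2 of 10 with the deposited values, against 1 of 10 in the main fit. In the main fit 29.8% of all tested genes did not overlap, and that share was not computed for the deposited values. With only probes above background on all 4 arrays, 8 members stayed and Otop1 stood by its other probe, at -0.06. Leaving out 1 array in turn gave 0 to 371 genes past the adjusted p, 1 to 10 members without overlap and a median difference of the members of -3.60 to 0.34, with 0 members called, and the lone array was assumed to vary like the others. The share of all tested genes without overlap was not computed with 1 array left out. Groups overlap less easily when 1 of them is a single array, so the 1 to 10 members cannot be read as separation by label. The same leave-out steps turned the direction of 7 members when W3 or K5 was left out, or both in turn. The ranges were -7.74 to 5.64 for Ucp1, -4.41 to 1.54 for Cidea, -3.67 to 1.82 for Elovl3, -4.13 to 0.042 for Cox8b, -0.81 to 0.24 for Ppargc1a, -6.33 to 2.58 for Otop1 and -0.99 to 0.45 for Kcnk3. Dio2, Cox7a1 and Cpt1b stayed below 0 in each of these fits. The white adipocyte markers had a median of -5.19 without K4 and 0.49 without K5. The cause was not tested. No label pairs an array of one group with an array of the other, so no paired analysis was run. The block for signal level joins arrays by brightness, not by a label.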

Other observations

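Genes of heat production without Ucp1, by creatine and calcium cycling, did not share the members' order of arrays. Of 12 tested, 1 had K4 and W3 above K5 and W2, 2 were higher and 5 were lower on both arrays labelled SR-A1-/- without overlap (58.3%, against 29.8% of all tested genes), and 0 passed the adjusted p in limma. At an unadjusted p under 0.05 there were 4 of 12 (33.3%, against 6.29% of all tested genes). Ckb, the creatine kinase of brown fat and brain, read 2.55 on K4 and 2.84 on K5, against 3.64 on W2 and 3.85 on W3, a difference of -1.05 ± 0.29 (SE; adjusted p = 0.597). Ckmt1 overlapped between the groups, at 1.45 on K4 and 1.60 on K5, against 1.25 on W2 and 2.44 on W3. Ckmt2, the mitochondrial creatine kinase of striated muscle, read -0.75 on K4 and -0.13 on K5, against 2.997 on W2 and 0.72 on W3 (adjusted p = 0.728), and the summed skeletal muscle markers were also highest on W2. The part of muscle in the values of this list was not tested. Genes proposed as beige adipocyte markers (7 tested) had a median difference of 0.01, and sympathetic nerve and Schwann cell markers (7 tested) one of 0.19. Th, the enzyme that starts noradrenaline synthesis, read -0.85 on K4 and -1.14 on K5, against -1.36 on W2 and -1.51 on W3 (adjusted p = 1.0). Npy, a peptide of sympathetic nerves, read -2.76 on K4 and -3.48 on K5, against -6.13 on W2 and -3.43 on W3, and was not well above background on W2. Slc6a2, the noradrenaline transporter, read -1.08 on K4 and -1.97 on K5, against -1.43 on W2 and -1.19 on W3.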
